A study of Mus musculus with 4 samples.

Results

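The cytosolic ribosomal protein genes encode the proteins that, with the ribosomal RNAs, make up the large (Rpl) and small (Rps) subunits of the ribosome. Members were every gene of the deposited feature list whose symbol has the form Rpl or Rps with a number, with or without a final a, x or l form, together with Rpsa, Rplp0, Rplp1 and Rplp2. S6 kinase genes and pseudogene rows were left out. The rule took 84 of 32285 genes, 52 for the large and 32 for the small subunit, and used no measured value.

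Primary spermatogonial cultures had been made from Thy1+ testis cells of 3 male mice at postnatal day 6, kept on a layer of STO cells, a mouse fibroblast feeder line. Cultures of both arms carried the feeder, and were given PBS as vehicle or, at 1 µg/mL for 3 days, extracellular vesicles (EVs) that came from testes of postnatal day 7 mice. Each arm had 2 droplet libraries that the labels call biological replicates. The study describes the single-cell samples as independent experiments, and a p-value here measures the spread between these libraries. Expression was read from both vehicle libraries and from EV 1, and that of EV 2 was not analysed here. Because sorting was by the surface protein Thy1, other Thy1+ testis cells could be in the cultures besides germ cells.

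Every cell makes the same core set of ribosomal proteins in near equal amounts, and the messenger RNAs of this set are among the most abundant in a growing cell. Most carry a pyrimidine tract at their 5′ end (the TOP motif), through which the mTOR pathway sets their translation. A few have a second gene copy: in mammals several of these arose by retroposition from the X chromosome, which is silenced during meiosis in male germ cells, and others, such as Rpl22l1 beside Rpl22, are expressed along with the first copy.

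Cells were divided by 4 marker genes each. A germ cell had at least 2 UMIs (unique molecular identifiers, 1 per captured RNA molecule) of Dazl, Tex15, Stk31 and Epcam and more of these than of Col1a1, Col1a2, Sparc and Dcn; a feeder cell met the reverse rule. This gave 4421, 4780 and 226 germ cells and 2346, 2477 and 2510 feeder cells in vehicle 1, vehicle 2 and EV 1, with 1496, 1380 and 2043 cells in neither class. The germ cells of EV 1 held 324434 UMIs in all, against 9455720 and 11063898 in the vehicle libraries, so that every germ cell value of EV 1 is the least precise. Germ markers outside the rule (Ddx4, Dnd1, Sall4, Mael, Tdrd5, Taf4b, Zbtb16 and Gfra1) summed to 657 to 918 CPM (counts scaled to a class total of 1000000 UMIs) in germ and 10.3 to 28.7 CPM in feeder cells. Feeder markers outside the rule (Col3a1, Col5a1, Col4a1, Pdgfra, Pdpn, Thy1, Lum and Postn) summed to 81.3 to 114 CPM in germ and 502 to 627 CPM in feeder cells, with Lum at 0 in germ and at most 0.294 CPM in feeder cells. Lists for Leydig, peritubular myoid, macrophage and endothelial cells summed to at most 27.7 CPM in any class of any library, and a Sertoli list to 30.7 to 67.8 CPM in germ and 312 to 344 CPM in feeder cells with Cst9 at 0 throughout.

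The starts of members at both ends of the germ to feeder comparison, of the paralogs Rpl22 and Rpl22l1, and of Rps10 as a typical TOP start are shown to set the X-linked genes beside the others. RefSeq windows (GRCm38.p6) were found for 64 of the 84 members. Each stretch runs from 60 bases before the listed transcription start through the first 20 bases of the first exon, where the 5′ UTR begins. Capitals mark CTTTC or CTTCC on the sense strand from 25 bases before the start on, or CCGGAAG, a core of ETS factor sites, on either strand. Where a gene had several listed starts, the one opening with the longest run of C and T is given.
Rps4x, chrX:102189372-102189451, minus strand: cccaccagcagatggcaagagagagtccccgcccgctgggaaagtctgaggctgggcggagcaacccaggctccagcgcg
Rpl39, chrX:37085203-37085282, minus strand: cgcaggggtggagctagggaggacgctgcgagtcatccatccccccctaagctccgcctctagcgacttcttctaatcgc
Rpl10, chrX:74270756-74270835, plus strand: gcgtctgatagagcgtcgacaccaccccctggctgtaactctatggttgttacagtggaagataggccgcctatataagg
Rpl36a, chrX:134585594-134585673, plus strand: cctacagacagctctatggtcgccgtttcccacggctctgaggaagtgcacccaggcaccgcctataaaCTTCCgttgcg
Rps10, chr17:27635225-27635304, minus strand: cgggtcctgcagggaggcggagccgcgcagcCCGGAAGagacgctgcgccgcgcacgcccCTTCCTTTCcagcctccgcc
Rpl35a, chr16:33056422-33056501, plus strand: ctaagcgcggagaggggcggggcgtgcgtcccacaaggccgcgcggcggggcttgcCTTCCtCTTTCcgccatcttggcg
Rpl12, chr2:32961652-32961731, plus strand: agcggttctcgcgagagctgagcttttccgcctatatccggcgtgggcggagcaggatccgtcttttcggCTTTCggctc
Rps2, chr17:24720003-24720082, plus strand: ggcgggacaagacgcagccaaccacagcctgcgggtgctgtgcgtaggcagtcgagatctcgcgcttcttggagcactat
Rpl22, chr4:152325666-152325745, plus strand: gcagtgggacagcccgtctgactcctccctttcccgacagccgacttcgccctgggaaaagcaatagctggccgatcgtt
Rpl22l1, chr3:28805448-28805527, plus strand: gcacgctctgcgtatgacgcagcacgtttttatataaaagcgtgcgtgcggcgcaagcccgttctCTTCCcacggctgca
The Rps10 start opens with 10 pyrimidines in a row and that of Rpl35a with 8. Rps4x, Rpl39, Rpl10, Rps2 and Rpl22 have none of the motifs marked by capitals where they were searched in the stretches shown. These motifs do not take in every run of C and T: after their listed starts Rpl39 holds cttcttct and Rps2 cttctt. Whether the listed starts are those used in these cells was not tested. CTTTC near the start was found in 19 of 76 member windows (25%) and in 6.17% of all 32851 windows of this table. CTTTC or CTTCC, whose matches can overlap by 1 base, was found in 42.1% of member windows and 15.3% of all. CCGGAAG anywhere in the 300 base window, on either strand, was found in 35.5% and 8.86%. These matches describe letters only: the 18 tested members with CTTTC near a start had a median log2 germ to feeder difference of -0.64, and the 44 without it of -0.71.

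Germ cells gave a smaller share of their UMIs to ribosomal protein genes than feeder cells in each library. With libraries in the order vehicle 1, vehicle 2 and EV 1, the share of summed UMIs was 16.2%, 15.2% and 16.3% in germ cells and 18.9%, 18.2% and 18.9% in feeder cells. The germ minus feeder difference was -2.75 ± 0.21 percentage points (SD, n = 3 libraries), and no library overlapped between classes. In cells thinned to 1000 UMIs it was -1.51 points, and without Malat1-rich cells, an alternative chosen after seeing the data, -5.15 points. With 3 paired libraries an exact sign-flip test cannot go below p = 0.25, so no test was made. Per cell, the medians lay closer in the vehicle libraries and about as far apart in EV 1: the median germ cell gave 16.2%, 15.3% and 16.1% and the median feeder cell 18.1%, 17.5% and 18.7%.

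**Figure D1:**
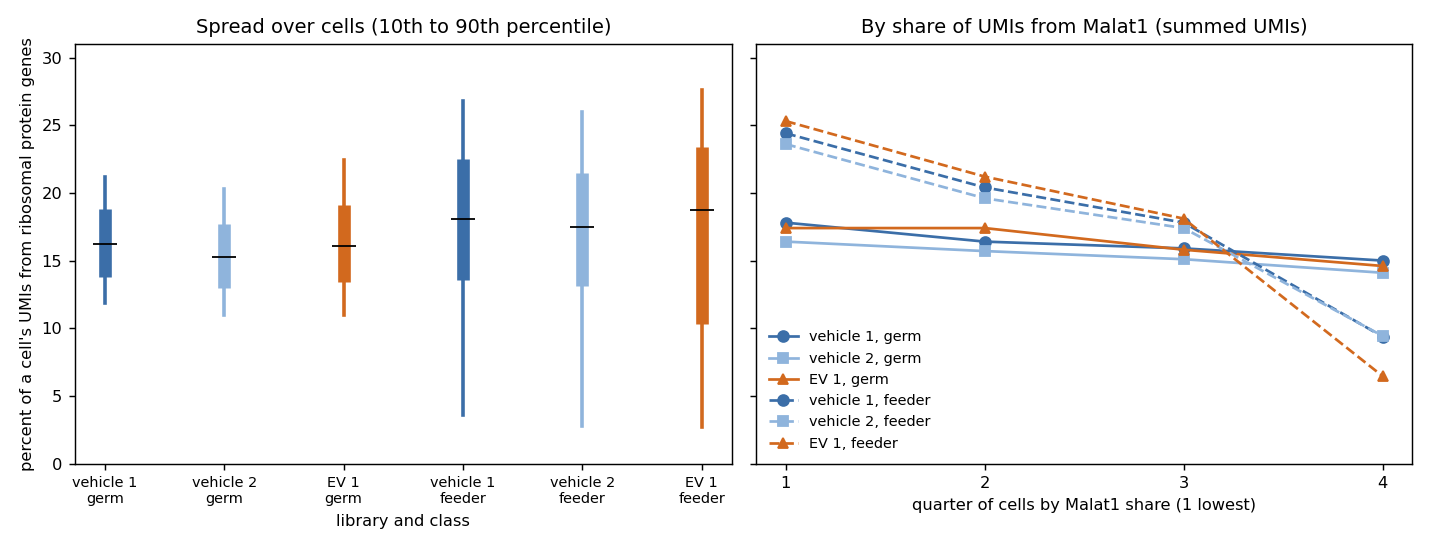
The left panel plots the percent of a cell's UMIs from ribosomal protein genes per library and class: a black bar for the median cell, a box for the quartiles and a line from the 10th to the 90th percentile. The right panel plots the percent in summed UMIs of 4 equal bins of cells ordered by their Malat1 share; feeder lines fall from over 23% to under 10%, germ lines from 16.4 to 17.8% to 14.1 to 15%.

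The feeder class was the wider one. The 10th percentile of feeder cells was 3.62%, 2.81% and 2.73% of UMIs from these genes in vehicle 1, vehicle 2 and EV 1, where that of germ cells was 11.9%, 11% and 11%. In feeder cells the ribosomal protein share went down as the share of Malat1, a nuclear RNA, went up (Spearman's rho -0.73, -0.67 and -0.76 over 2346, 2477 and 2510 cells), a description only, since cells of a library share their preparation and both shares have the same total. In germ cells rho was -0.27, -0.22 and -0.20. Of 4 equal bins of feeder cells, the one richest in Malat1 gave 9.38%, 9.43% and 6.46% of UMIs to the members and the poorest 24.4%, 23.6% and 25.3%. With cells of at least 5% Malat1 left out, the feeder share was 20.8%, 20.2% and 22.3%. Barcodes left out for at least 10% mitochondrial UMIs gave 6.23%, 4.91% and 4.83%.

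Within germ cells the share differed less. Germ cells thinned to 1000 UMIs that held a UMI of Mki67 or Top2a, genes of dividing cells, gave 15.6%, 14.8% and 15.1% of UMIs to the members in vehicle 1, vehicle 2 and EV 1. Those without gave 17.3%, 16.4% and 17%, higher in each of the 3 libraries. Cells with a UMI of Stra8 or Kit, genes of differentiating spermatogonia, gave 15.9%, 14.9% and 14.9%, and those without 16.5%, 15.7% and 16.3%. Cells of these groups come from the same libraries, and no test was made.

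Gene by gene, most members were lower in germ cells. UMIs were summed per library and class and germ was compared with feeder in edgeR's quasi-likelihood test over 15659 genes, with the library as a block and TMM scaling, which sets samples level on the bulk of genes. Rpl10l and Rpl39l did not pass the filter on low counts. Of the 82 members that did, 62 were lower in germ cells at a Benjamini-Hochberg adjusted p under 0.05, where 41.6% of all genes tested were lower, and 9 were higher, where 40.0% of all genes were higher; 11 did not pass. The median log2 germ to feeder difference over members was -0.69, beside -0.03 over all genes tested. Abundant genes in general leaned the same way. The 506 autosomal genes with a mean level of at least 8 on the log2 CPM scale, members among them, had a median of -0.61. Of them 60.7% were lower and 21.3% higher in germ cells. This limit was chosen after seeing the values, and the autosomal members had a median of -0.65. Large and small subunit genes had close medians of -0.70 (7 of 50 higher, 37 lower) and -0.66 (2 of 32 higher, 25 lower). The sign was the same in the 3 libraries for 78 of the 84 members.

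These counts depend on the scaling. TMM factors were 1.10, 1.12 and 1.34 for the germ sums and 0.86, 0.88 and 0.80 for the feeder sums, and with class totals in their place the median of all genes tested moved to 0.35. The members' median was then -0.21, 20 members were higher and 43 lower, and none of the 71 called by the main test was called in the other direction. Leaving out a library changed the counts as well: without vehicle 1, 4 members were higher and 41 lower, and without vehicle 2, 5 and 40. Without EV 1 the counts were 12 and 66.

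**Figure D2:**
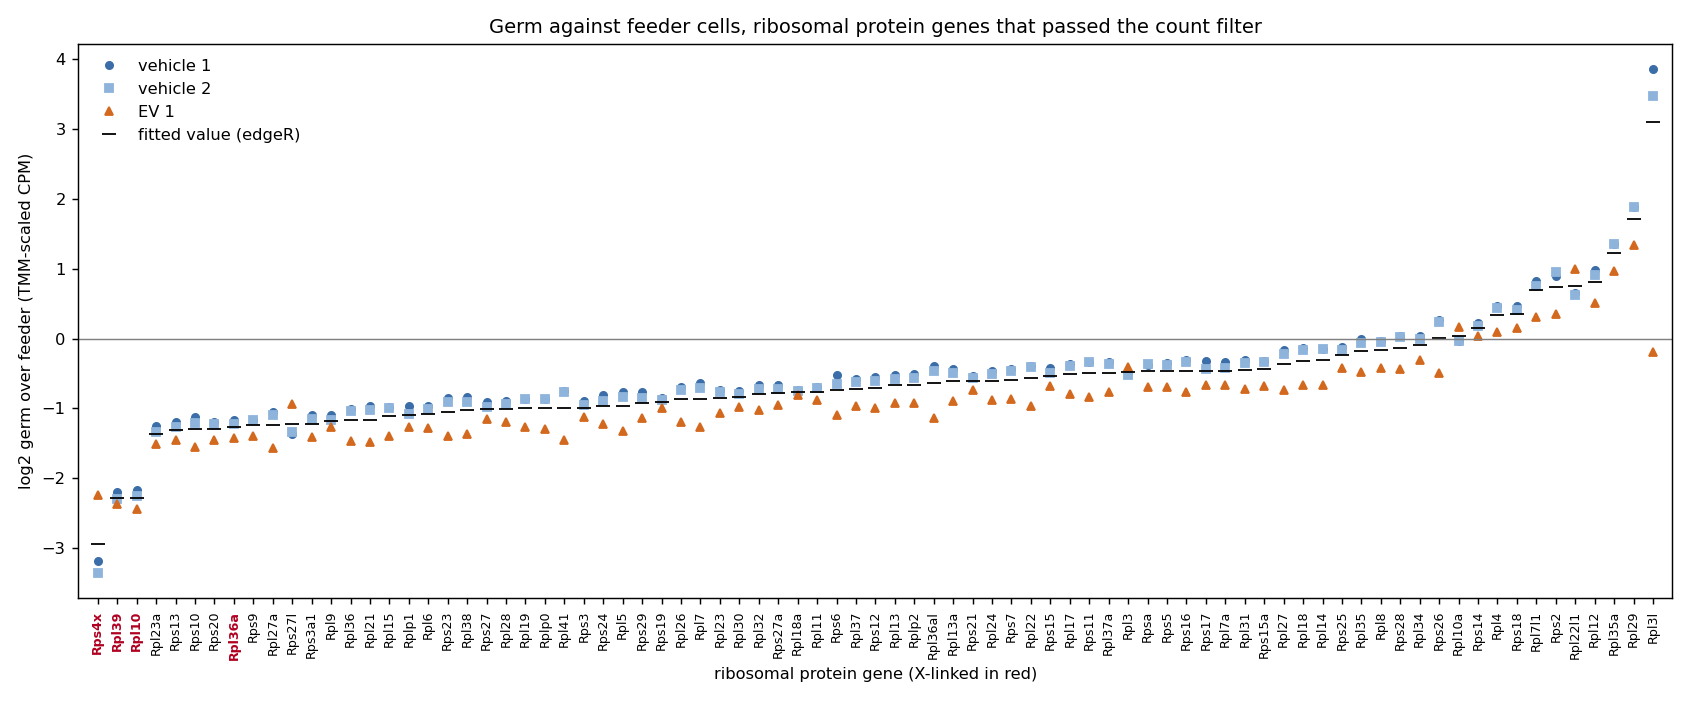
Each column is 1 of 81 of the 82 ribosomal protein genes tested, ordered by its fitted log2 germ to feeder difference (black bar). Points are the 3 libraries on the TMM scale, and X-linked genes are named in red. The 4 X-linked genes lie among the 8 lowest, and EV 1 lies below both vehicle libraries for most genes.

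EV 1 lay below the vehicle libraries on the TMM scale for most members, with a median log2 germ to feeder difference of -0.93 against -0.53 and -0.59. On class totals the medians were -0.19, -0.18 and -0.23, with no such gap. As shares of all ribosomal protein UMIs, which need no scaling, 39 of the 82 genes took a larger part in germ than in feeder cells in all 3 libraries, 35 a smaller part in all 3, and 8 were mixed.

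The 4 X-linked members, Rps4x, Rpl39, Rpl10 and Rpl36a, were all lower in germ cells. Rps4x, a small subunit protein gene with a Y-linked partner in humans, had, in the same order of libraries, 419, 362 and 744 TMM-scaled CPM in germ cells and 3830, 3704 and 3525 in feeder cells. All germ values lay far below the feeder values, and EV 1 was the highest of the germ values. The log2 difference was -2.95 ± 0.19 (SE; edgeR adjusted p = 2.65e-11), the lowest of any member, and -3.32 without EV 1. In cells thinned to 1000 UMIs, a Rps4x UMI was seen in 35.6%, 32% and 51.7% of germ and 85%, 82.7% and 79.5% of feeder cells.

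Rpl39, one of the smallest ribosomal proteins, which lines the exit tunnel, had 1244, 1004 and 1572 TMM-scaled CPM in germ and 5730, 4937 and 8117 in feeder cells (log2 difference -2.29 ± 0.13 (SE), edgeR adjusted p = 5.41e-12). Rpl10, which is added late to the large subunit and is needed for the subunits to join, had 394, 386 and 378 in germ and 1780, 1841 and 2056 in feeder cells (log2 difference -2.28 ± 0.14 (SE), edgeR adjusted p = 2.86e-11). Rpl36a, of the large subunit, had 738, 645 and 696 in germ and 1654, 1502 and 1859 in feeder cells (log2 difference -1.26 ± 0.14 (SE), edgeR adjusted p = 9.47e-08). For each of these genes the 3 germ values lay below the 3 feeder values. With class totals in place of TMM the differences of Rps4x, Rpl39, Rpl10 and Rpl36a were -2.52, -1.81, -1.82 and -0.79, still lower at an adjusted p under 0.05.

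The autosomal members had a median log2 difference of -0.65 over 78 genes, the lowest being Rpl23a at -1.37, so that Rps4x, Rpl39 and Rpl10 lay below all of them. X-linked genes as a whole were spread over both directions: of 548 tested, 277 (50.5%) were lower and 210 (38.3%) higher in germ cells, with a median of -0.43. Of 15078 autosomal genes 41.4% were lower and 40% higher, with a median of -0.02. Among the 16 X-linked genes with a mean level of at least 8 on the log2 CPM scale, a limit chosen after seeing the values, 15 were lower with a median of -1.95, and the 4 members are among these 16. Of the 506 autosomal genes at that level 307 (60.7%) were lower, with a median of -0.61.

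RNA of feeder marker genes was measured in the germ class too. Measured on class totals, the germ level of Rps4x was 14%, 12.5% and 35.3% of the feeder level in vehicle 1, vehicle 2 and EV 1. The feeder markers Col3a1 and Pdgfra, a collagen and a growth factor receptor gene, stood at 5.82%, 4.26% and 17.7% and at 4.27%, 4.56% and 5.44%. Others of the 8 feeder markers stood higher: Col4a1 at 12%, 9.38% and 28.3%, Pdpn at 22%, 13.7% and 17.8%, Thy1 at 28%, 21% and 43% and Col5a1 at 56.6%, 61.5% and 49.5%. Postn and Lum were at most 3.15 CPM in feeder cells and are not read. The germ level of Rps4x relative to feeder cells thus lay within the range of these markers. In each library it was above Col3a1, Pdgfra and Col4a1 and below Thy1 and Col5a1. The cultured cells had been sorted by Thy1, so germ cells may hold Thy1 RNA of their own. Whether the marker RNA in the germ class came from feeder cells was not tested. The part of free RNA in the Rps4x level was not tested.

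**Figure D3:**
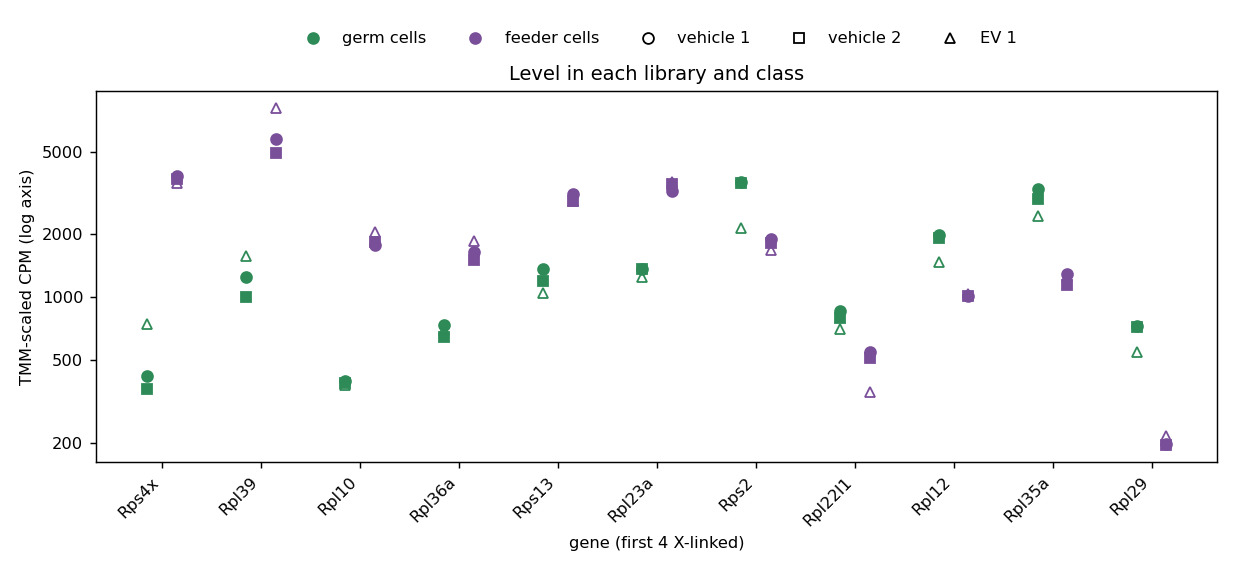
TMM-scaled CPM (log axis) of the X-linked genes, of Rps13 and Rpl23a and of 5 genes higher in germ cells; colour marks the class, and circles, squares and open triangles mark vehicle 1, vehicle 2 and EV 1. Germ and feeder values do not overlap for any of these 11 genes, and Rps4x in germ cells of EV 1 stands above both vehicle values.

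Among autosomal members Rpl23a, which sits at the mouth of the exit tunnel, had 1365, 1371 and 1252 TMM-scaled CPM in germ and 3243, 3474 and 3579 in feeder cells (log2 difference -1.37 ± 0.13 (SE), edgeR adjusted p = 1.64e-08). Rps13, of the small subunit, had 1360, 1198 and 1049 in germ and 3128, 2899 and 2885 in feeder cells (log2 difference -1.31 ± 0.13 (SE), edgeR adjusted p = 3.43e-08). Neither gene overlapped between the classes. Reads of members that have many processed pseudogenes can be lost or split between rows, and the rows of pseudogenes in the feature list, which the rule left out, held at most 375 UMIs in any sum.

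Called higher in germ cells were Rpl3l, Rpl29, Rpl35a, Rpl12, Rpl22l1, Rps2, Rpl7l1, Rps18 and Rpl4. On the TMM scale Rpl3l was higher in the vehicle libraries only. Rpl29, a small basic protein gene of the large subunit, had 726, 719 and 544 TMM-scaled CPM in germ and 197, 195 and 215 in feeder cells. Every germ value was above every feeder value, and the log2 difference was 1.72 ± 0.16 (SE; edgeR adjusted p = 6.27e-09). Rpl35a, another large subunit gene, had 3295, 2944 and 2464 in germ and 1289, 1145 and 1258 in feeder cells (log2 difference 1.23 ± 0.14 (SE), edgeR adjusted p = 1.23e-07). Rpl12, which lies at the base of the stalk, had 1992, 1918 and 1477 in germ and 1012, 1018 and 1035 in feeder cells (log2 difference 0.81 ± 0.14 (SE), edgeR adjusted p = 3.77e-05; 0.0549 without vehicle 1).

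Rps2, a central small subunit protein gene, was at 3560, 3522 and 2144 TMM-scaled CPM in germ and 1907, 1821 and 1684 in feeder cells. Its classes did not overlap, though EV 1 came nearest, and the log2 difference of 0.74 ± 0.14 (SE; edgeR adjusted p = 1.11e-04) was not called when either vehicle library was left out (adjusted p of 0.103 and 0.113). Rps18 and Rpl4 were higher by 0.35 and 0.34 on the log2 scale (edgeR adjusted p of 0.0257 and 0.0343), the smallest of the called increases, and neither was called without vehicle 1, without vehicle 2 or without Malat1-rich cells.

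Rpl22l1 and Rpl7l1 were called in the direction opposite to their partners, and Rpl36al and Rps27l in the same direction. The call of Rpl3l was also opposite to that of Rpl3, but it rests on the vehicle libraries. In EV 1 the log2 difference of Rpl3l was -0.19 on the TMM scale. Rpl22, an RNA-binding large subunit protein gene, was lower in germ cells (log2 difference -0.57 ± 0.15 (SE), edgeR adjusted p = 0.00173), with 905, 818 and 747 TMM-scaled CPM in germ and 1182, 1085 and 1461 in feeder cells. The call of Rpl22 was lost without vehicle 1 (edgeR adjusted p = 0.0619), without vehicle 2 (0.0637) and on class totals (log2 difference -0.10, 0.254). Rpl22l1 was higher (log2 difference 0.75 ± 0.15 (SE), edgeR adjusted p = 1.00e-04), with 861, 792 and 701 in germ and 546, 510 and 351 in feeder cells. Of the UMIs of the pair, which need no scaling between classes, Rpl22l1 held 48.8%, 49.2% and 48.4% in germ cells of the 3 libraries in that order. In feeder cells it held 31.6%, 32% and 19.4%, so that EV 1 stood apart in feeder but not in germ cells. The 95% Wilson intervals were 44.5 to 52.3% for the EV 1 germ cells and 18.6 to 20.2% for the EV 1 feeder cells, and cover counting error only.

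Rpl7l1 and Rpl7 showed the same arrangement at a lower share. Rpl7, a large subunit protein gene, was lower in germ cells by a log2 difference of -0.86 ± 0.15 (SE; edgeR adjusted p = 3.34e-05), and Rpl7l1 higher by 0.70 ± 0.13 (SE; edgeR adjusted p = 8.96e-05). Rpl7l1 held 11.9%, 12.6% and 12.5% of the pair's UMIs in germ and 4.67%, 4.93% and 4.57% in feeder cells. The call of Rpl7l1 was lost when either vehicle library was left out (adjusted p of 0.0828 and 0.057). Rpl36al, the autosomal copy of Rpl36a, was lower by -0.64 ± 0.16 (SE; edgeR adjusted p = 0.00127; not called on class totals, at -0.15) and held 45.4%, 45.7% and 37.6% of its pair in germ and 32.7%, 33.2% and 33.3% in feeder cells. For this pair the germ value of EV 1 lay between those of the vehicle germ cells and the feeder cells.

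Rps27l, a copy of Rps27 that p53 induces, was lower in germ cells (log2 difference -1.23 ± 0.15 (SE), edgeR adjusted p = 3.38e-07), as was Rps27 (-1.01 ± 0.14 (SE), edgeR adjusted p = 1.69e-06). Rps27l held 33.7%, 35.5% and 33.3% of the pair's UMIs in germ and 41%, 41.4% and 30.2% in feeder cells. The vehicle feeder cells were thus the highest, and the feeder cells of EV 1 the lowest.

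**Figure D4:**
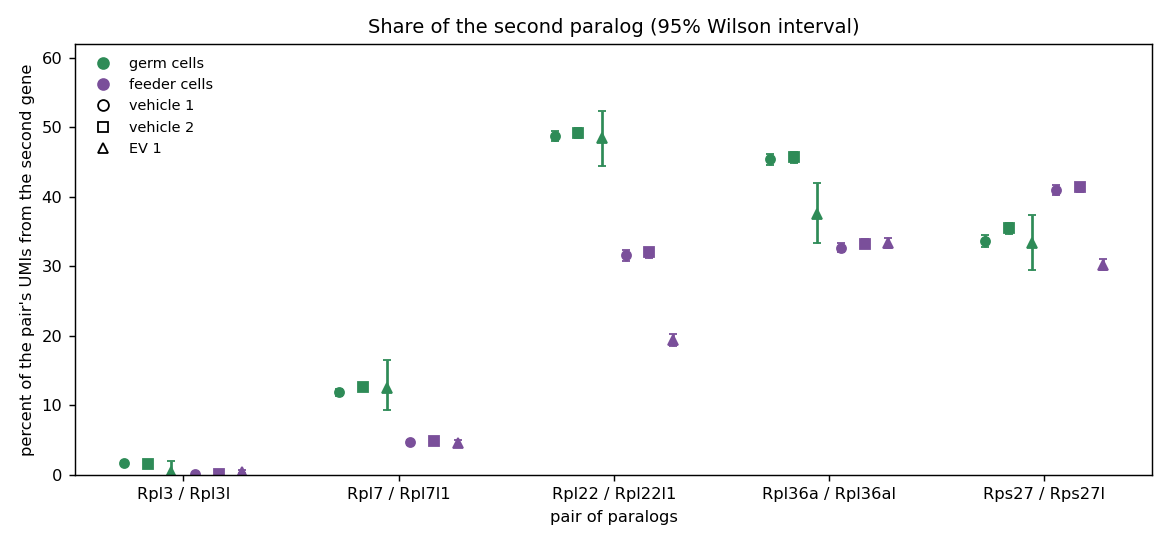
Percent of the UMIs of 5 paralog pairs that came from the second gene, in germ (green) and feeder cells (purple) of vehicle 1 (circles), vehicle 2 (squares) and EV 1 (triangles), with 95% Wilson intervals. Germ and feeder shares of Rpl22l1 and Rpl7l1 do not overlap, and in feeder cells of EV 1 the shares of Rpl22l1 and Rps27l lie below both vehicle libraries.

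The remaining copies were sparse. Rpl3l, known as the form of striated muscle, gave 138, 153 and 1 UMIs in germ and 7, 10 and 21 UMIs in feeder cells. The vehicle germ cells were far above the rest and EV 1 was not, and the log2 difference was 3.11 ± 0.33 (SE; edgeR adjusted p = 4.84e-08). Rpl3l would not have passed the filter on low counts without the vehicle germ cells, where it is high. Its p-value is therefore not read as support. Rpl3l held 1.63%, 1.58% and 0.358% of the Rpl3 pair in germ and 0.0755%, 0.0959% and 0.451% in feeder cells, and a Rpl3l UMI was seen in 3.05%, 3.12% and 0.442% of germ cells at full depth. Rpl3l lies at chr17:24727820-24736143 (GRCm38, plus strand), downstream of Rps2 at chr17:24718116-24721929 on the same strand. Rpl3 itself was lower in germ cells by -0.48 ± 0.14 (SE; edgeR adjusted p = 0.00368). That call of Rpl3 was lost without vehicle 1 or vehicle 2 (edgeR adjusted p of 0.200 and 0.206), on class totals (log2 difference -0.03, adjusted p = 0.796) and in thinned cells (adjusted p = 0.116).

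Rpl39l and Rpl10l, autosomal copies known from meiotic and later male germ cells, were near the floor. Rpl39l gave 11, 17 and 0 UMIs in germ and 3, 0 and 2 in feeder cells. Among germ cells at full depth 0.226% and 0.356% of the vehicle cells had a Rpl39l UMI, against 0.128% and 0% of feeder cells, which have the greater depth (medians of 3620 and 3899 UMIs against 1936 and 2098). The 0 of 226 germ cells in EV 1 allows a share of cells with a UMI of up to 1.33% (3 counts), at a median depth of 1325 UMIs. Rpl10l gave 1, 5 and 1 UMIs in germ and 1, 1 and 0 in feeder cells, too few in any library to read a level from. In the vehicle germ cells Rpl39l was 0.0848% and 0.136% of the UMIs of its pair, and Rpl10l 0.0243% and 0.104%. In the vehicle feeder cells Rpl39l was 0.00639% and 0% and Rpl10l 0.00686% and 0.00574%, shares that also move with the lower Rpl39 and Rpl10 counts of germ cells.

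Of 13 members with known roles of their own 10 were lower, beside 62 of 82 over all members tested. Rplp0, Rplp1 and Rplp2 form the stalk that binds the translation GTPases. Rplp0 had 2453, 2227 and 1636 TMM-scaled CPM in germ and 4445, 4046 and 4028 in feeder cells (edgeR adjusted p = 1.50e-06), with no overlap. Rplp1 and Rplp2 were lower by -1.10 and -0.66 on the log2 scale (edgeR adjusted p of 1.45e-07 and 1.68e-04), and Rplp2 was not called without vehicle 1 or vehicle 2 (adjusted p of 0.0684 and 0.0775). Rpl5 and Rpl11, which with 5S RNA form a particle that can bind Mdm2, were lower by -0.96 and -0.76 (edgeR adjusted p of 5.79e-06 and 5.22e-05). Rps6, the substrate of S6 kinase, was lower by -0.74 and Rps19, mutated in Diamond-Blackfan anaemia, by -0.91 (edgeR adjusted p of 1.37e-04 and 3.12e-06). Rpsa, also called the laminin receptor, was lower by -0.47, and Rps27a, made as a ubiquitin fusion, by -0.78 (edgeR adjusted p of 0.00235 and 2.07e-05). On class totals the Rpsa difference was 0.00, and Rpsa was not called without vehicle 1 or vehicle 2 (edgeR adjusted p of 0.216 and 0.208).

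Rpl38, which has a role in translating Hox genes, was lower by -1.03 ± 0.14 (SE; edgeR adjusted p = 2.03e-06). Rps25, which acts at viral internal ribosome entry sites, Rpl10a and Rps14 did not pass, with log2 differences of -0.23, 0.03 and 0.15 (edgeR adjusted p of 0.13, 0.827 and 0.29). Rpl10a, for which translation by specialised ribosomes has been described, had 1118, 1056 and 980 TMM-scaled CPM in germ and 1142, 1077 and 871 in feeder cells, so that the classes overlapped. Rpsa, Rplp1, Rps28 and Rps2 were among the members with the most UMIs in germ cells, and Rplp1, Rps20, Rpl39 and Rpl41 in feeder cells. UMI counts were not divided by length. Rps20 and Rpl41, whose product is the smallest ribosomal protein, were lower by -1.29 and -0.99 (edgeR adjusted p of 1.87e-08 and 4.97e-06), and Rps28 was at -0.13 without passing (edgeR adjusted p = 0.388).

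Genes that serve the ribosome without being members did not all go the same way. Of 40 genes for ribosomal RNA transcription and ribosome assembly, 36 were higher in germ cells and 2 lower. Over all genes tested 40.0% were higher and 41.6% lower. The median log2 difference of the 40 genes was 1.03, opposite in sign to that of the ribosomal proteins. Ncl, the nucleolar protein nucleolin, had 1246, 1304 and 850 TMM-scaled CPM in germ and 503, 556 and 515 in feeder cells (log2 difference 1.10, edgeR adjusted p = 2.01e-06). Polr1b, a subunit of RNA polymerase I, was higher by 1.78 (edgeR adjusted p = 6.62e-09). The lower genes, named after their values were seen, were Rrp1 and Nop10.

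Fau and Rack1, whose products lie in the ribosome but whose symbols fall outside the rule, were both lower, with log2 differences of -0.78 and -0.79 (edgeR adjusted p of 1.43e-05 and 3.64e-05). Of 29 translation factor genes, 3 were higher and 13 lower, with a median of -0.24, beside 40.0% higher and 41.6% lower over all genes tested. Of its 5 elongation factor genes Eef1a1, Eef2 and Eef1b2 were lower by -1.44, -1.04 and -0.92 (edgeR adjusted p of 4.85e-09, 1.93e-06 and 4.98e-06), and Eef1g and Eef1d were at 0.04 and -0.03 without passing. Read against the same shares, the 78 mitochondrial ribosomal protein genes were divided, 30 higher and 27 lower with a median of 0.04. Of 13 genes of growth control, 7 were higher and 5 lower: Mycn was at 14.9, 15 and 2.3 TMM-scaled CPM in germ and 0.61, 0.317 and 0 in feeder cells, and Myc at 1.34, 0.564 and 2.3 against 10.9, 10.9 and 16. In the germ cells of EV 1 a value of 2.3 is what 1 UMI gives, so these values are not read against the vehicle libraries. Mdm2, the p53 ligase bound by the Rpl5 and Rpl11 particle, was lower by -1.69 (edgeR adjusted p = 2.75e-09).

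Between EV 1 and the vehicle libraries the members as a set lay close together. With 1 EV library there is no replicate check and no test, and values are CPM of the class total with their counting error. In germ cells 82 members had at least 200 UMIs over the 3 libraries, and the median log2 of EV 1 over the vehicle mean was 0.03, beside 0.01 over 9676 genes. In feeder cells the median over 81 members was -0.04, beside -0.13 over 9704 genes. With TMM factors, the medians in feeder cells were 0.09 and 0.00. A gene was counted as past the fold when it differed by at least 0.5 on the log2 scale and lay outside the vehicle values by more than their own distance. In germ cells 4 members were past it upward and 1 downward, where 17.3% and 15.2% of all genes counted were. The 1 downward is Rpl3l, which had at least 200 UMIs only through the vehicle libraries and whose interval includes 1. In feeder cells 1 was past it upward and 2 downward, where 5.86% and 13.8% of all genes were. With TMM factors or DESeq2 size factors 4 were upward and 1 downward.

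**Figure D5:**
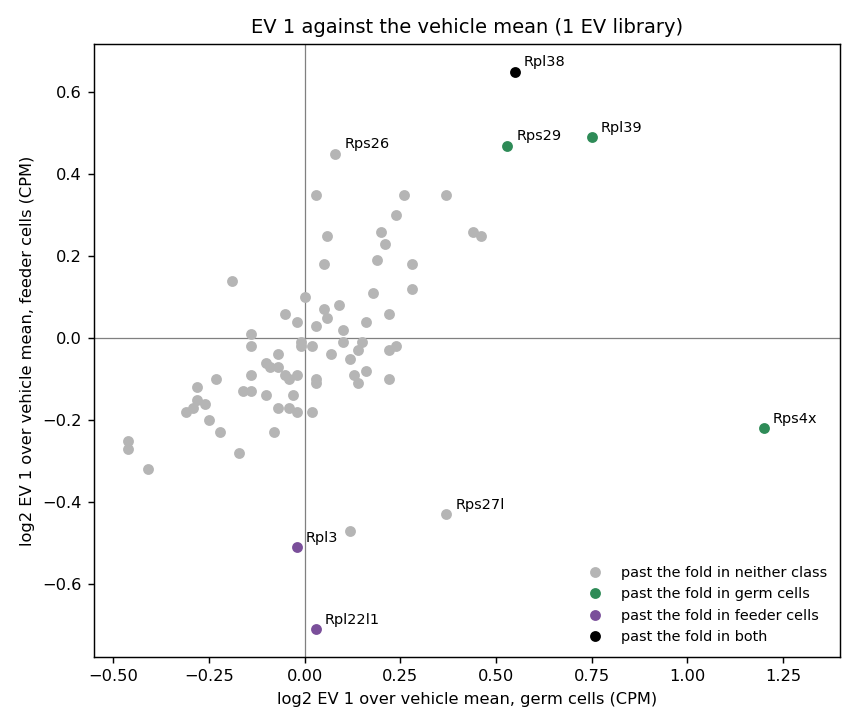
Log2 of EV 1 over the vehicle mean in germ cells (horizontal) and feeder cells (vertical) for the 81 ribosomal protein genes with at least 200 UMIs in both classes; colours mark genes past the fold. Most points lie within 0.5 of 0 on both axes, Rpl38, Rpl39 and Rps29 lie to the upper right, and Rps4x stands far to the right. The same 3 libraries give both axes.

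In germ cells the gene with the greatest difference upward was Rps4x, with 461 and 405 CPM in the vehicle libraries and 996 CPM in EV 1. EV 1 was 2.31 times the pooled vehicle level (95% exact conditional interval 2.06 to 2.58), and in feeder cells 0.861 times (0.848 to 0.875). In the same germ cells the 8 feeder markers outside the rule summed to 89.2 and 81.3 CPM in the vehicle libraries and 114 CPM in EV 1. Its members did not all go the same way: Col3a1 was at 10.5, 8.13 and 21.6 CPM and Col5a1 at 35.1, 37.7 and 27.7 CPM, and each EV 1 value rests on few UMIs. The 8 germ markers summed to 897, 918 and 657 CPM. Malat1 took 1.53%, 1.67% and 2.5% of the UMIs of these germ cells. The part of either in the Rps4x value was not tested.

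Rpl39 was at 1371 and 1125 CPM in the vehicle germ cells and 2102 CPM in EV 1, 1.70 times the vehicle level (1.57 to 1.83), and in feeder cells EV 1 was 1.41 times (1.39 to 1.42) the vehicle level. Rpl38 was the member past the fold in both classes, at 1.47 times (1.35 to 1.59) in germ and 1.57 times (1.54 to 1.60) in feeder cells. Rps29, which encodes a small zinc-binding protein, was at 1.45 times (1.36 to 1.55) and 1.39 times (1.37 to 1.41). The vehicle libraries themselves differed for these genes, as Rpl38 shows, with a mean of 1279 ± 122 CPM (SD, n = 2) in germ and 1832 ± 99.8 CPM in feeder cells against 1868 and 2867 CPM in EV 1. Rps21 was at 1.39 times (1.31 to 1.47) in germ cells, just under the fold limit.

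Rpl39, Rpl38 and Rps29 code for short proteins. Of the members with a coding length of at most 300 bases, a limit chosen after seeing the values, 9 of 9 were higher in EV 1 than the vehicle mean in both classes, with a median log2 of 0.44 in germ and 0.35 in feeder cells. Among the longer ones 35 of 73 were higher in germ cells (median -0.01) and 21 of 72 in feeder cells (median -0.08). Over members, Spearman's rho of coding length with the EV 1 difference was -0.49 in germ and -0.61 in feeder cells. The same rho for vehicle 1 over vehicle 2, libraries of 1 arm, was -0.64 and -0.56. Over all 9321 and 9292 genes with a coding length the rho with the EV 1 difference was 0.06 in both classes, and with vehicle 1 over vehicle 2 it was -0.34 and -0.26. These are descriptions across genes that share their libraries.

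In feeder cells Rpl22l1 was at 471 and 448 CPM in the vehicle libraries and at 281 CPM in EV 1, 0.612 times the vehicle level (0.583 to 0.643). In germ cells its EV 1 level was 1.02 times the vehicle level (0.910 to 1.15). Rpl3, a large subunit gene at the catalytic centre, was 0.703 times (0.681 to 0.726) in feeder and 0.985 times (0.871 to 1.11) in germ cells. Rpl10a and Rps27l in feeder cells were 0.723 and 0.745 times the vehicle level, both under the fold limit. Rps27l in germ cells was 1.29 times (1.11 to 1.50). Whether the EV 1 difference itself differs between the classes was not tested, since each class has 1 EV value.

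The 5 members with the lowest EV 1 values in germ cells were Rpl3l, Rps2, Rpl7, Rpl7l1 and Rpl14. The Rpl3l value rests on 1 UMI and was 0.217 times the vehicle level (0.00548 to 1.22). Rps2 was 0.728 times (0.682 to 0.777), Rpl7 0.727 times (0.646 to 0.816) and Rpl14 0.808 times (0.733 to 0.890), none of them past the fold. The other lists were counted in the same way. Of the 40 assembly genes 2 were past the fold upward and 8 downward in germ cells, and 0 of 37 upward and 10 downward in feeder cells. Of the 78 mitochondrial ribosomal protein genes 2 were past it upward and 12 downward in germ cells, and 0 upward and 8 downward in feeder cells. Of all genes counted, 17.3% were past it upward and 15.2% downward in germ cells, and 5.86% and 13.8% in feeder cells. Fau was at a log2 of 0.37 and 0.32 over the vehicle mean in germ and feeder cells and Rack1 at 0.06 and -0.04.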

How the data were processed

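Raw UMI counts per gene and barcode were deposited by the authors as filtered matrices. The submitters' processing notes name Cell Ranger 7.0.1 and mm10; whether intronic reads were counted is not given in the sources used here. Barcodes with 400 to 4000 genes and under 10% mitochondrial UMIs were kept, and doublets were removed with Scrublet (scanpy 1.11.5) at 0.8% per 1000 cells, leaving 8263, 8637 and 4779 cells of libraries with 23686047, 27444797 and 10793232 UMIs. At most 20 barcodes were shared between any 2 of these libraries.

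Counts were summed per library and class and tested in edgeR 4.0.16 (quasi-likelihood test, TMM, default low-count filter, library block, Benjamini-Hochberg adjustment over all genes); DESeq2 1.42.0 was an alternative. The scripts were tested on simulated counts. EV 1 was compared with the vehicle mean as log2 CPM with 0.5 UMI added, without a test. Wilson and exact conditional 95% intervals cover counting error only. Named members were the paralogs, X-linked genes, genes with known separate roles, and the 5 at each end of each comparison and with the most UMIs; the values of the rest were summarised, and a few genes are not reported here by name. Members and gene lists were chosen with earlier results of these data known. RefSeq windows gave the sequences, and GENCODE the coding lengths.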

Additional observations from a re-analysis of the deposited data

Results flagged for a closer look

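For 4 ribosomal protein genes the log2 germ to feeder difference had 1 sign in both vehicle libraries and the other in EV 1, on the TMM scale. Rps26 was at -0.50 in EV 1 and at 0.27 and 0.24 in the vehicle libraries. Rps28 was at -0.44 in EV 1 and at 0.04 and 0.02. Rpl10a was at 0.17 in EV 1 and at -0.03 in both vehicle libraries. Rpl3l was at -0.19 in EV 1, where germ cells gave 1 UMI, and at 3.86 and 3.48. On class totals each of the 4 genes kept 1 sign in every library, so the change of sign depended on the scaling. In the order EV 1, vehicle 1 and vehicle 2, Rps26 was then at 0.24, 0.63 and 0.60 and Rps28 at 0.30, 0.39 and 0.37. Rpl10a was at 0.91, 0.32 and 0.33 and Rpl3l at 0.55, 4.21 and 3.83. The differences between the arms were not tested, since the EV arm has 1 library here. EV 1 lay below both vehicle libraries for most members on the TMM scale.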

How the results depend on the processing

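Of the 132 alternative values of the summary results, 99 stayed within their limits and 33 moved. Leaving out 1 library gave 4 to 12 members higher and 40 to 66 lower in germ cells, with a median of -0.79 to -0.60. Of the 71 calls, 45 were kept without vehicle 1 and 45 without vehicle 2, and none changed direction. Library totals in place of TMM gave 20 higher and a median of -0.21, and turned Rpl14 (0.16), Rps25 (0.25), Rps28 (0.35) and Rpsa (0.00). The median was -0.46 in cells thinned to 1000 UMIs and -1.01 without Malat1-rich cells, an alternative chosen after seeing the data. The share difference was -4.13 points under the stricter class rule, -1.51 thinned, -5.15 without Malat1-rich cells and -2.23 as a median over cells.

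For EV 1 in germ cells, leaving out a vehicle library gave 2 to 6 members higher, 1 to 2 lower and a median of -0.02 to 0.07; thinning gave 2 higher, and the stricter class rule 2 lower. In feeder cells leaving out a vehicle library gave 1 to 3 higher (3 without vehicle 1), 2 to 3 lower and a median of -0.04. There, 4 were higher and 1 lower with TMM factors, DESeq2 size factors, the stricter class rule or without Malat1-rich cells, and 2 higher with at least 1 UMI, all barcodes or thinning; all barcodes gave 1 lower. The median was 0.09 with TMM factors and with DESeq2 size factors, 0.05 under the stricter class rule and 0.06 without Malat1-rich cells. The causes were not tested. Without EV 1 no EV value can be given.

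No paired analysis was possible because only 1 EV library has a matrix used here, so the arms share 1 replicate number. The 324434 germ UMIs of EV 1 limit what can be seen for sparse members.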

Other observations

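Feeder cells grew richer in ribosomal protein UMIs with depth and germ cells did not. From the shallowest to the deepest of 4 equal bins of cells, the share went from 14.5% to 21.1% in vehicle 1 feeder cells and from 17.2% to 15.5% in vehicle 1 germ cells. Vehicle 2 and EV 1 had the same direction in both classes, with Spearman's rho of share and depth of 0.31 and 0.37 in feeder and -0.19 and -0.13 in germ cells. Cells in neither class gave 16.3%, 15.9% and 13.4% of their UMIs to these genes in vehicle 1, vehicle 2 and EV 1. Coding length had a rho of 0.11 with the germ to feeder difference over the 82 members tested, which ranged from 141 to 1260 bases.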
